A study of Malus domestica with 6 samples.

Results

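MD17G1243400 and MD16G1043000 are apple genes on chromosomes 17 and 16 whose annotation names a B-box zinc finger family protein and a B-box zinc finger protein with a CCT domain. They are 2 of the 52311 gene IDs quantified, and both passed the expression filter that left 28610 genes to test. Both were chosen by their higher level in red flesh (RF) than in white flesh (WF) in these same libraries. The RF and WF values of these 2 genes are therefore given as a description, without a test.

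RNA was sequenced from the mesocarp, the fleshy part of the fruit, in the red-flesh apple cv. 'R201' at 84 days after full bloom. There were 3 RF and 3 WF libraries, lettered A to C in each colour, from untreated fruits of different trees. Per the labels both colours were cut from the same fruits, and libraries of the same letter were read as pairs. RF was the outer and WF the inner cortex, and colour and position in the fruit cannot be told apart. All libraries come from a single cultivar at a single stage. The replicates were described as semi-biological, so p-values measure only the spread between these libraries. In bulk tissue, fewer cells of a type and less RNA per cell cannot be told apart.

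B-box proteins are plant transcription regulators that hold zinc in a small domain through which they bind other proteins. In Arabidopsis many of them act in the response to light, some with the light-response factor HY5. Some members promote the light response and anthocyanin synthesis and others restrain them, and several are removed in darkness through the ubiquitin ligase COP1. The CCT domain, shared with the flowering regulator CONSTANS, is carried by a subset of the family. The functions of MD17G1243400 and MD16G1043000 in apple were not measured here.

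The library totals lay between 25536185 and 26050906 estimated reads, and the scaling factors that correct for library composition between 0.97 and 1.01. Levels of different genes are compared below in TPM, a measure of transcript abundance scaled for gene length and for the size of the library. Differences between colours are given as log2 fold changes of RF over WF, fitted by edgeR to the estimated read counts. Of the genes of anthocyanin synthesis, 19 of 19 listed were called higher in RF, against 6.08% of all tested genes. The study had picked them on these libraries, so this count cannot serve as a check of the colour labels.

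MD17G1243400 was the scarcer of the 2 genes. Its level was 3.05, 4.61 and 6.76 TPM in WF libraries A, B and C, and 15.9, 22.6 and 16.7 TPM in RF libraries A, B and C. The colours did not overlap, and the lowest RF library stood 2.35 times above the highest WF library. Such a separation was favoured beforehand, since the gene was chosen for a higher level in RF. The share of all tested genes that separate in this way was not counted. These levels rest on 64, 97 and 144 reads in WF and 327, 469 and 349 reads in RF. All 6 counts were whole numbers, so none of its reads had been divided with another gene in a way that left a fraction. The exact Poisson 95% interval ran from 49.3 to 81.7 reads in WF library A and from 121.4 to 169.5 reads in WF library C. These intervals, which cover counting error only, do not overlap.

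The mean level of MD17G1243400 was 4.81 ± 1.87 TPM in WF and 18.4 ± 3.68 TPM in RF (SD, n = 3), a coefficient of variation of 38.8% and 20.0%. The log2 fold change was 1.93 (SE 0.23). In the ranking of 28610 tested genes by log2 fold change it held place 90. Between 32.6% and 42.5% of all gene IDs had a higher TPM than MD17G1243400 in WF libraries, against 15.5% to 20.0% in RF libraries. Its place among all genes was thus higher in each RF library than in any WF library.

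MD16G1043000 was more abundant in every library and changed less. Its level was 25.0, 29.0 and 32.7 TPM in WF libraries A, B and C, and 48.3, 56.9 and 46.3 TPM in RF libraries A, B and C. The colours did not overlap here either, which the choice of the gene favoured as well. The lowest RF library stood 1.42 times above the highest WF library. These levels rest on 849.5 to 1123 estimated reads in WF and 1575 to 1892 in RF. Only the count of WF library B was whole, so some of its reads had been divided with a similar sequence and its level carries that uncertainty.

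The mean level of MD16G1043000 was 28.9 ± 3.82 TPM in WF and 50.5 ± 5.61 TPM in RF (SD, n = 3), a coefficient of variation of 13.2% and 11.1%. The log2 fold change was 0.80 (SE 0.10), place 704 among the tested genes. In absolute terms MD16G1043000 nevertheless gained more, with an RF minus WF difference of 21.6 ± 7.24 TPM over the 3 pairs, against 13.6 ± 4.10 TPM for MD17G1243400 (SD, n = 3 pairs).

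**Figure D1:**
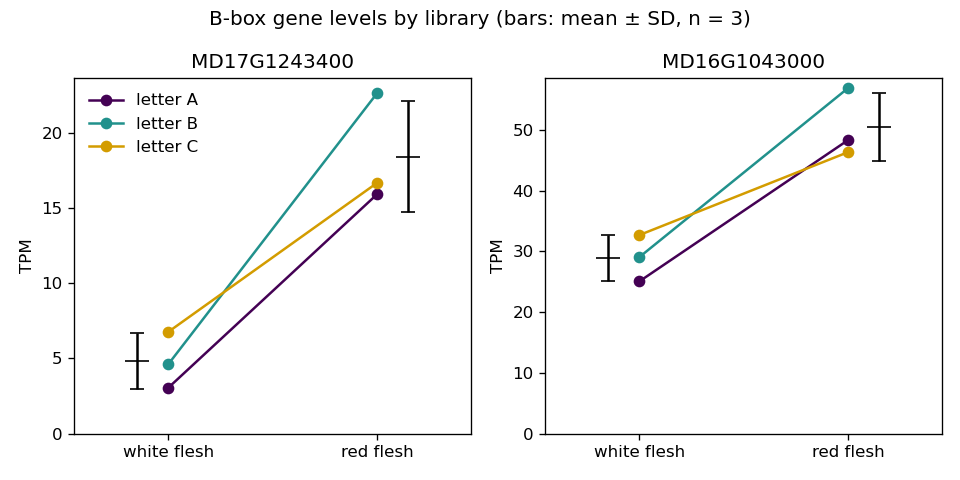
Level of MD17G1243400 (left) and MD16G1043000 (right) in TPM in white and red flesh, with lines joining libraries of the same letter and black bars giving the mean ± SD of 3 libraries. Every line rises and the colours do not overlap, in genes that were chosen for a higher level in RF. MD17G1243400 lies at 3.05 to 6.76 TPM in WF and 15.9 to 22.6 TPM in RF, and the lines of letter C rise least.

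Taken pair by pair, the RF to WF ratio of MD17G1243400 in TPM was 5.22, 4.90 and 2.46 for letters A, B and C. That of MD16G1043000 was 1.93, 1.96 and 1.42. Letter C gave the smallest ratio for both genes. On the log2 scale the mean of the 3 paired ratios was 1.99 ± 0.60 for MD17G1243400 and 0.81 ± 0.26 for MD16G1043000 (SD, n = 3 pairs). In pair C the WF library was the highest of its colour for both genes, while the RF library was the lowest for MD16G1043000 and close to the lowest for MD17G1243400.

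Because MD17G1243400 changed more, the balance between the genes shifted. MD16G1043000 had 8.22, 6.29 and 4.83 times the TPM of MD17G1243400 in WF libraries A, B and C. In RF libraries A, B and C it had 3.04, 2.51 and 2.78 times as much. The order of the 2 genes was therefore the same in all 6 libraries, and the gap was narrower in each RF library than in any WF library.

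These genes were chosen for their difference between colours, a choice in which the spread inside each colour can also weigh. To describe the variation inside each colour, each library's log2 CPM was set against the mean of its own colour. CPM are read counts scaled to the composition-corrected library size. The deviations of MD17G1243400 in WF libraries A, B and C were -0.58, 0.01 and 0.57, and those of MD16G1043000 were -0.21, 0.01 and 0.20. In RF libraries A, B and C they were -0.17, 0.30 and -0.13 for MD17G1243400 and -0.04, 0.16 and -0.12 for MD16G1043000. The deviations had the same sign in 6 of 6 libraries, but in WF library B both were close to 0. Deviations cancel out within a colour, so these signs are not independent of each other. The share of all tested genes with the same signs was not counted. WF library A was lowest and WF library C highest of the white libraries for both genes, and RF library B was highest of the red ones for both.

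Over these 6 deviations Pearson's r between the 2 genes was 0.97. It is a description without a p-value, since removing the mean of each colour leaves few independent values and the points share the same libraries. Of the other tested genes, 0.584% had an r at least as high with MD17G1243400 and 0.468% with MD16G1043000. Leaving out each library in turn, an alternative chosen after seeing the data, gave values from 0.94 to 1.00, the lowest without WF library A. No correlation over the uncorrected levels is given, because red and white libraries form separate clusters.

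The list of light genes held 2 other genes of the B-box family, and both were lower in RF, against 4.68% of all tested genes called lower, 6.08% called higher and 10.8% called in either direction. MD09G1099500, described as a B-box type zinc finger protein, had 19.0, 20.3 and 22.0 TPM in WF libraries A, B and C and 15.5, 16.3 and 15.9 TPM in RF libraries A, B and C. The colours did not overlap (log2 fold change -0.36, SE 0.08, edgeR adjusted p = 0.0189). CONSTANS-like 4 (MD08G1049600), a relative of the flowering regulator CONSTANS, had 77.3, 98.4 and 99.3 TPM in WF libraries A, B and C and 62.2, 80.8 and 68.0 TPM in RF libraries A, B and C. Here RF library B lay above WF library A (log2 fold change -0.38, SE 0.11, edgeR adjusted p = 0.0463). Both came from the study's own list of called genes, so their direction is not independent evidence. Other B-box genes, not called by the study, could not be named from the descriptions at hand and were not examined. The call of MD08G1049600 was lost under a filter of 50 mean counts (edgeR adjusted p = 0.0507). Both calls were lost without WF library B or C or RF library A or C, with edgeR adjusted p-values up to 0.0722 for MD09G1099500 and 0.178 for MD08G1049600, and over all alternatives they ran from 0.00518 to 0.0722 and from 0.000536 to 0.178.

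Although they moved the other way between colours, these listed B-box genes shared the order of the libraries inside each colour. Whether the rest of the B-box family does so was not examined. WF library A was lowest, WF library C highest and RF library B highest for MD09G1099500 and for MD08G1049600 as well. That combination was present in 8.19% of all tested genes. The r of deviations with MD17G1243400 was 0.97 for MD09G1099500 and 0.89 for MD08G1049600, and with MD16G1043000 it was 0.90 and 0.88. Without WF library A, the library on which these values rest most, they were 0.91 and 0.73 with MD17G1243400 and 0.77 and 0.73 with MD16G1043000. The RF to WF ratio of TPM was smallest for letter C in these genes too, at 0.72 for MD09G1099500 and 0.69 for MD08G1049600, against 0.80 to 0.82 for letters A and B. With WF library C and RF library B highest, a smaller ratio for C than for B follows from that order and is not a separate likeness.

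**Figure D2:**
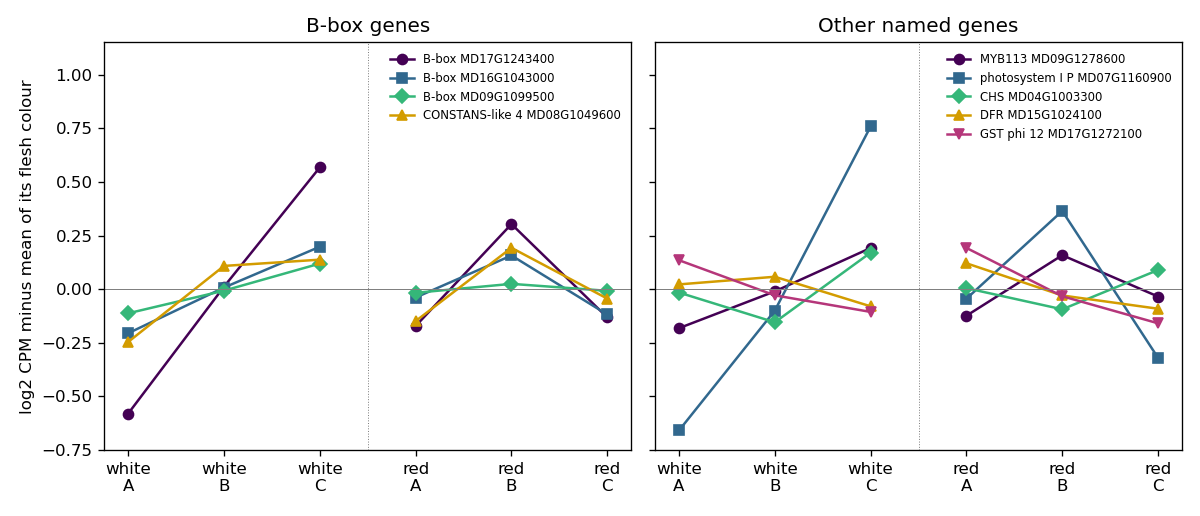
Log2 CPM minus the mean of its own flesh colour in the 6 libraries, for the 4 named B-box genes (left) and for 5 other named genes (right), with lines that only join the points of a gene within a colour. The 4 B-box genes shown, MYB113 and photosystem I P are lowest in WF library A and highest in WF library C and RF library B, while the genes of pigment synthesis and transport take other orders.

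Upstream of B-box proteins in light signalling stand the photoreceptors. Of the 5 listed light-absorbing proteins, phytochrome E and cryptochrome 1 are such receptors. The others carry the name photolyase in their description. All 5 were called higher in RF, with log2 fold changes from 0.21 to 1.23, against 6.08% of all tested genes. The study had called all 5 on these libraries, and their count is not independent evidence. The count was 3 without any single library other than WF library C. Phytochrome E (MD05G1291600), a receptor of red and far-red light, rose from 0.64 ± 0.07 to 1.51 ± 0.40 TPM (SD, n = 3; log2 fold change 1.23, SE 0.20, edgeR adjusted p = 0.00269). Cryptochrome 1 (MD15G1369900), a receptor of blue light, rose less, from 35.5 ± 2.44 to 41.6 ± 1.26 TPM (log2 fold change 0.23, edgeR adjusted p = 0.0430), and its call was lost with no filter on low counts (0.0525) and without WF library A or B or any RF library (adjusted p up to 0.189 and from 0.0106 over all alternatives). The genes described as photolyase/blue-light receptor 2, MD03G1288700 and MD11G1309400, had log2 fold changes of 0.56 and 0.21. Leaving out any of the 6 libraries ended the call of MD11G1309400, with edgeR adjusted p-values up to 0.121 (0.00846 to 0.121 over all alternatives). Photolyase 1 (MD04G1078900), of a class of enzymes that repair ultraviolet damage to DNA with the energy of light, rose by 0.90 (SE 0.15). Inside the colours the 5 genes followed MD17G1243400 little, with r of deviations from -0.34 to 0.45.

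Of 8 listed light signalling genes, 3 were called higher, 1 was called lower and 4 were not called. Of all tested genes, 6.08% were called higher and 4.68% lower. HY5 (MD08G1147100), the transcription factor with which B-box proteins act in Arabidopsis, had 4.77, 5.50 and 3.64 TPM in WF libraries A, B and C and 6.98, 4.28 and 4.44 TPM in RF libraries A, B and C. The colours overlapped (log2 fold change 0.18, SE 0.22, edgeR adjusted p = 0.677), and the sign of the difference turned without RF library A. The gene described as HY5-homolog (MD16G1132200) was higher in RF, with 30.1, 28.1 and 26.1 TPM in WF against 41.9, 36.0 and 32.8 TPM in RF (log2 fold change 0.39, SE 0.10, edgeR adjusted p = 0.0315). That call was lost without WF library B or C or RF library A or B (adjusted p up to 0.124 and from 0.00178 over all alternatives). Neither gene followed the B-box genes inside the colours: with MD17G1243400 the r of deviations was -0.53 for HY5 and -0.46 for its homolog.

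Phytochrome kinase substrate 1 (MD16G1073600), a phytochrome-binding protein, rose from 4.34 ± 0.67 to 8.77 ± 0.49 TPM (SD, n = 3; log2 fold change 1.01, SE 0.13, edgeR adjusted p = 0.000760). COP1-interacting protein 7, named for its contact with the ligase that marks light regulators for removal, is the description of MD11G1241400, which rose by 0.32, and of MD03G1223400, which was not called (log2 fold change 0.24, edgeR adjusted p = 0.0764). Cryptochrome-interacting basic-helix-loop-helix 1 (MD10G1074000), a transcription factor that binds a blue-light receptor in Arabidopsis, was lower in RF (log2 fold change -0.36, SE 0.07, edgeR adjusted p = 0.00678). Gigantea (MD10G1034200), a protein of the circadian clock, had a log2 fold change of 0.29 and was not called (edgeR adjusted p = 0.0672). When the samples were paired by letter (replicate block), the latter COP1-interacting gene MD03G1223400 and gigantea MD10G1034200 passed the threshold (edgeR adjusted p = 0.00399 and 0.00499), as they did by DESeq2. Over all alternatives their adjusted p reached 0.269 and 0.248. FAR1-related sequence 5 (MD01G1197600), of a family of phytochrome-linked transcription factors, had a log2 fold change of 0.04 (edgeR adjusted p = 0.782). Inside the colours, the r of deviations with MD17G1243400 and MD16G1043000 was 0.67 and 0.54 for phytochrome kinase substrate 1. For MD03G1223400 it was -0.87 and -0.82, the most negative of the light list. The median r over the 8 light signalling genes was -0.27 and -0.19.

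NPH3 family proteins act with the phototropins, blue-light receptors that steer bending towards light. Of 8 listed, 5 were called higher and 3 lower in RF, against 6.08% and 4.68% of all tested genes. Most of the light list was picked by the study on these libraries, so these counts are not independent evidence. MD15G1323900 rose most, from 0.56 ± 0.10 to 2.31 ± 0.31 TPM (SD, n = 3; log2 fold change 2.04, SE 0.20, edgeR adjusted p = 0.000158), a fold change like that of MD17G1243400. Its WF level rests on only 23, 20 and 29 reads in libraries A, B and C. The other higher ones, MD16G1101200, MD15G1040600, MD03G1048900 and MD11G1051400, had log2 fold changes of 0.60, 0.48, 0.41 and 0.39. The lower ones, MD15G1273100, MD05G1363200 and MD04G1177100, fell by 0.38, 0.40 and 0.47, and each of these calls was lost without WF library B or RF library A. In 7 of the 8 genes the r of deviations with MD17G1243400 was above 0, as in 50.6% of all tested genes.

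In the whole light list of 23 genes, 13 were called higher and 6 lower, against 6.08% and 4.68% of all tested genes. The median log2 fold change of the list was 0.29, against -0.00 over all tested genes. Of the 23 genes, 21 had been taken from the study's list of called genes, so the counts do not show that light genes changed more often than others. Of the 6 lower genes, 1 was still called lower without WF library B, 1 without RF library A and 2 without RF library C.

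**Figure D3:**
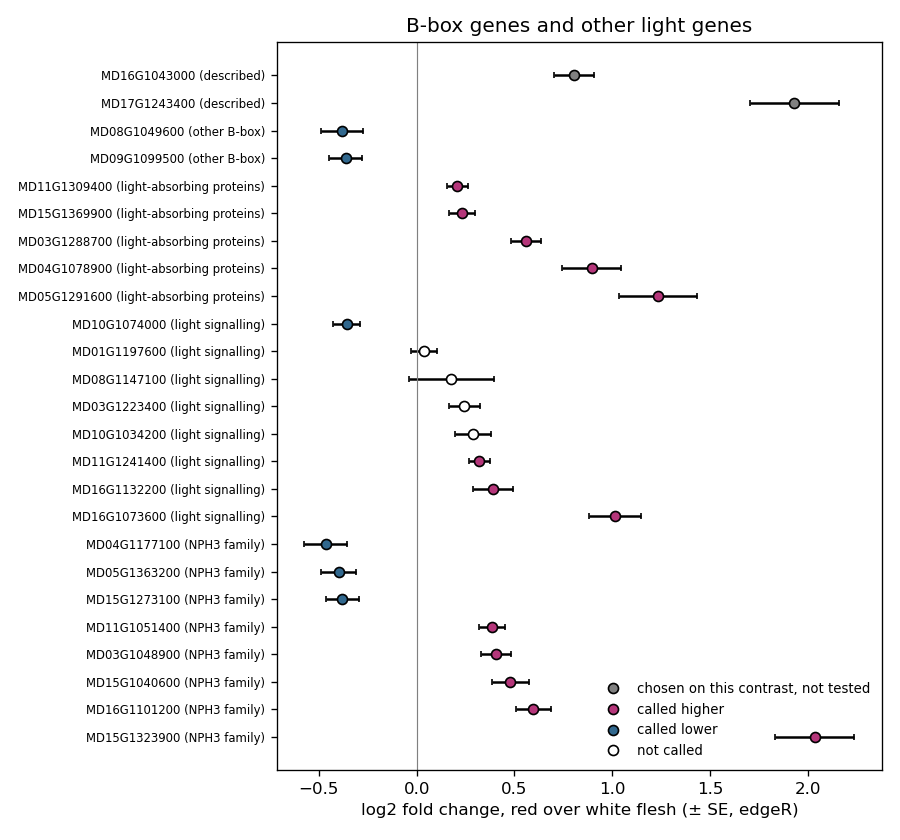
Log2 fold change of RF over WF for MD16G1043000 and MD17G1243400 (grey, no p-value given) and for the 23 genes of the light list by role. Bars give the SE, derived from the edgeR F statistic. The described genes stand at 0.80 and 1.93, the other listed B-box genes at -0.36 and -0.38, and all 5 light-absorbing proteins to the right of 0.

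Among the pigment genes, MYB113 (MD09G1278600), named by its description as one of a class of activators of anthocyanin genes, had 19.0, 21.3 and 24.3 TPM in WF libraries A, B and C and 28.4, 35.3 and 30.8 TPM in RF libraries A, B and C. Its r of deviations was 0.97 with MD17G1243400 and 0.94 with MD16G1043000, and at least 0.94 and 0.87 without any single library. As in the B-box genes, its RF to WF ratio was smallest for letter C, at 1.27 against 1.49 for A and 1.66 for B. The smaller ratio for C than for B again follows from the order of the libraries. The enzymes and the transport protein of pigment formation took other orders. The r of deviations with MD17G1243400 was 0.27 for chalcone synthase (MD04G1003300), -0.46 for dihydroflavonol 4-reductase (MD15G1024100) and -0.59 for glutathione S-transferase phi 12 (MD17G1272100). The first of these rests on WF library C, without which it was -0.90. With 1 library left out the second ran from -0.72 to -0.08 and the last from -0.93 to -0.31, so these values too depend on single libraries. Over the 19 anthocyanin genes the median r was -0.46 with MD17G1243400 and -0.27 with MD16G1043000, although all 19 were called higher in RF.

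The genes most like the B-box genes were sought among 1818 described genes with a mean of at least 100 counts, by the root-mean-square difference between log2 CPM profiles over the 6 libraries, each centred on its own mean. Closest to MD17G1243400 was MD07G1160900, photosystem I P subunit, a protein of the chloroplast's photosynthetic membranes, with a difference of 0.16 on the log2 scale. This gene had 1.40, 2.09 and 3.84 TPM in WF libraries A, B and C and 9.88, 13.4 and 8.31 TPM in RF libraries A, B and C. It was also the closest of all tested genes, described or not, but its WF levels rest on only 28, 42 and 78 reads. Next came MD05G1209300, an aldolase-type TIM barrel protein, at 0.20 and MD06G1002700, an auxin efflux carrier, at 0.23. MD16G1043000 itself lay 0.62 from MD17G1243400, since the likeness takes the size of the change into account.

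Closest to MD16G1043000 were MD09G1230800, a P-loop nucleoside triphosphate hydrolase, at 0.05, PGR5-LIKE A (MD04G1071000), which in Arabidopsis serves cyclic electron flow around photosystem I, at 0.05, and MD16G1092800, an oxidoreductase, at 0.06. PGR5-LIKE A had 23.9, 27.7 and 33.9 TPM in WF libraries A, B and C and 44.9, 57.0 and 45.1 TPM in RF libraries A, B and C, levels near those of MD16G1043000 in each library. Its r of deviations was 0.98 with both B-box genes. The candidates were described genes, most of which the study had called on these libraries, so a likeness in the change between colours was favoured beforehand.

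Most listed markers of green tissue were, like the B-box genes, higher in RF. Of 31 listed chloroplast genes (photosystem, light-harvesting and Rubisco genes), 29 were tested. By edgeR 24 of them were called higher and 0 lower in RF, against 6.08% and 4.68% of all tested genes. The median log2 fold change of the list was 0.68, against -0.0045 over all tested genes. By DESeq2, 27 were called higher and 1 lower. Their summed level was 1268, 1222 and 1460 CPM in WF libraries A, B and C. In RF libraries A, B and C it was 2117, 2164 and 2043 CPM. WF library B rather than A was thus the lowest of its colour, unlike in the B-box genes. Most of the genes had been picked by the study for their difference between colours, a choice in which the spread inside the colours can also weigh. Inside the colours, 28 of the 29 had an r of deviations above 0 with MD17G1243400 and 27 with MD16G1043000, against 50.6% and 50.5% of all tested genes. The median r was 0.62 with MD17G1243400 and 0.71 with MD16G1043000, against 0.01 and 0.01 over all tested genes. The library order of the B-box genes (WF library A lowest, WF library C and RF library B highest) was shared by 10 of the 29, or 34.5%, against 8.19% of all tested genes. All 29 were read off the same libraries and can vary together, so these counts are a description without a test. The part of green tissue in the levels of the B-box genes was not tested.

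The outer flesh also carried more of the epidermis list, which held lipid transfer protein 4 and the 3-ketoacyl-CoA synthases 10 and 11 (the latter enzymes make the long chains of waxes). All 3 were called higher, against 6.08% of all tested genes, and all had been taken from the study's called genes. Their sum ran from 29.9 to 37.4 CPM in WF and from 46.1 to 72.2 CPM in RF. Lipid transfer protein 4 (MD12G1187100) was at 1.40 ± 0.65 TPM in WF, from only 8, 17 and 23 reads, and at 29.2, 11.5 and 11.7 TPM in RF libraries A, B and C. Its r of deviations was 0.41 with MD17G1243400 and 0.43 with MD16G1043000, and the median over the 3 genes was -0.09 and -0.11. The part of epidermis was not tested.

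**Figure D4:**
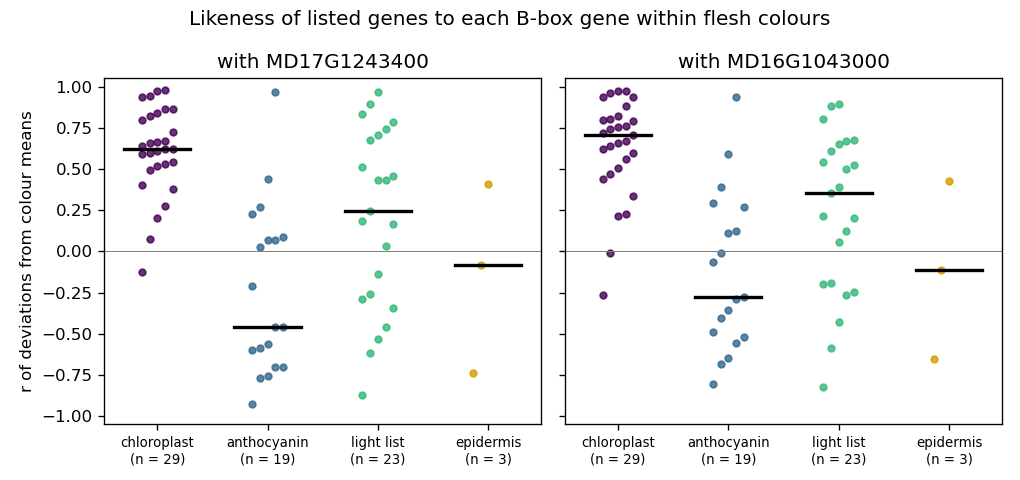
Pearson's r between the deviations from colour means of each listed gene and those of MD17G1243400 (left) or MD16G1043000 (right), with a point per gene and a bar at the median of each list. Chloroplast genes lie mostly above 0 (medians 0.62 and 0.71), and anthocyanin genes have medians of -0.46 and -0.27.

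Gene IDs run along the chromosome, so the 10 IDs on each side show whether a whole stretch moved with a B-box gene. Around MD17G1243400, 14 of 20 neighbours were tested, 1 was called higher and 1 lower, with a median log2 fold change of -0.02. Around MD16G1043000, 14 of 20 were tested as well, again with 1 higher and 1 lower and a median of -0.06. These shares of 1 in 14 stand beside 6.08% higher and 4.68% lower over all tested genes. The higher neighbour was a gene of the small subunit of Rubisco, the carbon-fixing enzyme, in both places. MD17G1244400, which lies 10 IDs past MD17G1243400, rose from 47.1 ± 5.95 to 187 ± 49.2 TPM (SD, n = 3; log2 fold change 1.99, SE 0.17, edgeR adjusted p = 7.34e-05). MD16G1042700, 3 IDs before MD16G1043000, had 12.2, 12.03 and 21.0 TPM in WF libraries A, B and C and 20.9, 27.3 and 26.5 TPM in RF libraries A, B and C (log2 fold change 0.72, SE 0.19, edgeR adjusted p = 0.0366), with overlap between the colours. The genes directly beside the B-box genes that were tested, MD17G1243500 and MD16G1043100, had log2 fold changes of 0.04 and 0.00.

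**Figure D5:**
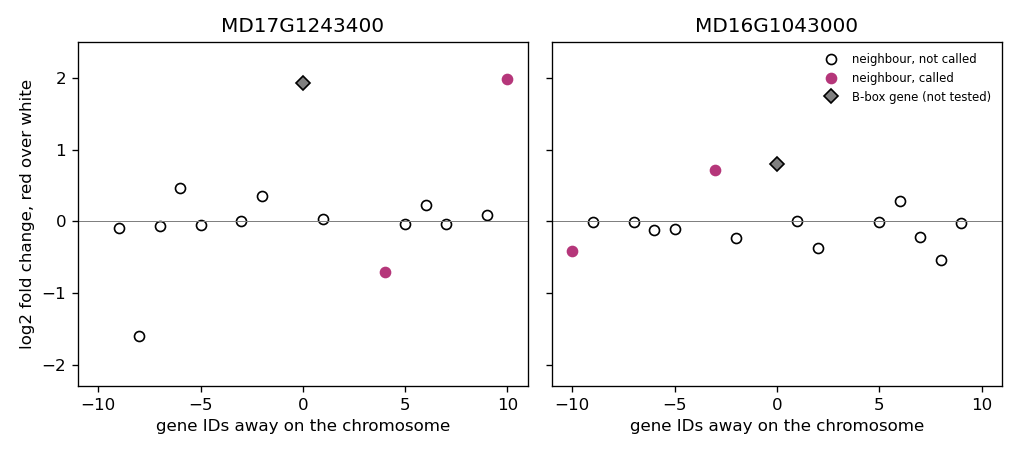
Log2 fold change of RF over WF for the tested genes among the 10 IDs on each side of MD17G1243400 (left) and MD16G1043000 (right), plotted against the number of IDs away. Filled circles were called by edgeR; the B-box genes (diamonds, 1.93 and 0.80) stand apart from their nearest neighbours, and the called higher neighbours are the Rubisco genes.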

How the data were processed

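The authors quantified each poly(A)-selected, strand-marked library with the AnaDiff workflow and deposited a table per library with an estimated count of reads, TPM, length and effective length for each gene. The column layout is that of salmon. Its version and its settings were not given in the sources used here. The gene IDs follow the apple genome annotation GDDH13 v1.1. The deposited TPM values were printed as given.

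Estimated counts were rounded and fitted with edgeR 4.0.16 in R 4.3.3 (TMM, standard expression filter, quasi-likelihood test, flesh colour as the only term, Benjamini-Hochberg adjustment over 28610 genes, called at an adjusted p under 0.05). The SE of a log2 fold change was its absolute value divided by the square root of the F statistic of this test. This holds for the described B-box genes too, whose p-values are not given. The script was tested on simulated data. The study used DESeq2, run here as an alternative (1.42.0).

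Same-letter libraries deviated together (r across genes 0.27, 0.23 and 0.23, against -0.22 to 0.00042 between different letters). Deviations from a colour mean cancel out over its letters, so positive values within letters push those between letters down. The labels state that red and white flesh were taken from the same fruits, without tying a letter to a fruit, and libraries of 1 letter were treated as a pair. The block was an alternative, as were other normalisation, filters, length offsets, TPM scales with pseudocounts of 1 and 0.1, and leaving out each library.

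The genes and lists were chosen with earlier results of these data known. Named were the described genes, the light list, 4 anthocyanin and 3 chloroplast genes fixed by ID, and the 3 described genes most like each. Lipid transfer protein 4, PGR5-LIKE A's values across libraries and the nearest neighbours were singled out after their values were seen, as was the order of libraries that was counted. Descriptions came from the study's supplementary lists (2184 IDs), and 0 IDs matched the RefSeq gene table, so no sequence is shown.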

Additional observations from a re-analysis of the deposited data

How the results depend on the processing

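Over 14 alternatives each, the log2 fold change ran from 1.69 to 2.26 for MD17G1243400 and from 0.71 to 0.90 for MD16G1043000, within the spread of the paired ratios. With the samples paired (replicate block) these were 1.94 and 0.81. The r of deviations between them was 0.97 with DESeq2 size factors or log2(TPM + 1). Over all genes, 2981 were called higher and 2401 lower with the replicate block, and from 939 to 1624 higher and from 666 to 1523 lower with a library left out. The light list had 10 to 12 genes higher and 1 to 6 lower with a library left out. The chloroplast list had 1 gene lower with the replicate block, by DESeq2 and under a filter of 50 mean counts, and 0 to 1 with a library left out, when its median log2 fold change ran from 0.57 to 0.77 and 16 to 27 genes were higher. With a library left out the log2 fold change ran from -0.10 to 0.31 for HY5 (MD08G1147100) and from -0.0040 to 0.072 for MD01G1197600, each below 0 only without RF library A. Of the 3 described genes most like each B-box gene, 2 for each were the same on the log2(TPM + 1) scale. The replicate block ended no call in the light list and added 2, as did DESeq2. The cause of these differences was not tested. Counts of 64 to 144 reads in WF limit the precision of MD17G1243400.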
